A study of Mus musculus with 2 samples.

Results

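The collagen genes of the mouse were followed through single cells taken from tumours. They were chosen by name alone, as every gene whose symbol is Col, a number, a and a number, which gave 44 of the 31053 genes in the count matrix. The rule uses the symbol and no measured value, while the choice of this family was made with earlier results of these data known. All 44 gene identifiers were found in the GENCODE vM21 annotation with the same symbol. The tumours grew for 2 weeks in C57BL/6 mice from subcutaneously injected MTC-Q1 cells, a line used by the study as a mouse oral cancer model. One group carried MTC-Q1 WT cells and the other carried MTC-Q1 miR-21 KO cells, which lack the microRNA miR-21 in the injected line and not in the host. Both groups received cisplatin at 5 mg/kg and were taken 72 hours later, so no untreated group was analysed here. Cells were freed of dead cells, selected on beads for CD45, the leukocyte surface protein encoded by Ptprc, and made into 1 library per group. The sources used here do not give the number of animals behind each library.

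The 2 libraries lie in 1 matrix, told apart only by the suffix of the cell barcode, and nothing read here ties a suffix to WT or to miR-21 KO. They are called library 1 and library 2, and no direction between the genotypes can be given. Library 1 held 5320 barcodes with a median of 7169 unique molecular identifiers (UMIs, each standing for 1 captured RNA molecule), and library 2 held 7194 with a median of 15248. After filters 4977 and 6740 cells were left, and 8 barcode sequences occurred in both libraries, 1 cell of them among the Ptprc-low cells. With 1 library on each side there is no replicate, so no test was made, and every interval below covers counting error alone.

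Collagens are secreted proteins in which 3 chains wind into a triple helix. Fibrillar collagens build the cables of skin, tendon and scar, with type I and type III as the main ones and types V and XI inside the fibril, where they limit its width. Basement membrane collagen (type IV) forms sheets, type VI forms beaded filaments around cells, and smaller families sit on fibrils or end at basement membranes. Fibroblasts are the main makers of fibrillar collagen in connective tissue and in tumour stroma, while blood-borne leukocytes are not known as a major source. Collagen UMIs in cells selected on CD45 can belong to carried-along stromal or tumour cells, to leukocytes or to free RNA. Low-Ptprc cells and leukocytes are therefore described separately.

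The sequences before the start sites of 4 members are shown because the comparisons between cells turn on them. Col1a2 and Col3a1 are main fibrillar chains, Col15a1 was hardly detected in cells with 3 to 7 of 9 fibroblast markers, and Col11a1 was not detected in library 1 in the cells with nearly all of those markers. Each is the 250 bases before the RefSeq start on build GRCm38.p6, read 5′ to 3′ on the gene's strand, which is the plus strand for all 4. They lie at chr6:4505368-4505617 for Col1a2, chr1:45311288-45311537 for Col3a1, chr4:47207762-47208011 for Col15a1 and chr3:114030290-114030539 for Col11a1. GENCODE vM21 places the first base of Col1a2 at 4504814, so that the Col1a2 window lies inside that longer gene model, and for Col15a1 at 47208161. Capitals mark matches, on either strand, to CCAAT (the CCAAT box), TATAAA (the TATA box), GGGCGG (the GC box) or GGAATG (bound by TEAD factors).
Col1a2: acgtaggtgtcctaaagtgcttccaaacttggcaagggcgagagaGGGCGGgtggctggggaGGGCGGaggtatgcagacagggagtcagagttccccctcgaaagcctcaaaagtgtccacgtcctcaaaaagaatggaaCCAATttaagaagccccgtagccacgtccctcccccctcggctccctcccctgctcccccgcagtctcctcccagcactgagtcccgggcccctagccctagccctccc
Col3a1: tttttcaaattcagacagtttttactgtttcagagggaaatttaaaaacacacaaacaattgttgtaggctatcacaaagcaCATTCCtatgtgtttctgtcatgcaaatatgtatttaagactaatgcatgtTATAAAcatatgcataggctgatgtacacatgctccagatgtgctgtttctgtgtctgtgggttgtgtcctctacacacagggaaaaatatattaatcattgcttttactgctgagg
Col15a1: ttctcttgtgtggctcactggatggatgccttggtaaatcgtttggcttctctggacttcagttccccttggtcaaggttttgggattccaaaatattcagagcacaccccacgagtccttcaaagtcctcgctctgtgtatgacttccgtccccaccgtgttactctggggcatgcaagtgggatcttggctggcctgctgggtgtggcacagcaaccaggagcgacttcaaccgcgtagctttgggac
Col11a1: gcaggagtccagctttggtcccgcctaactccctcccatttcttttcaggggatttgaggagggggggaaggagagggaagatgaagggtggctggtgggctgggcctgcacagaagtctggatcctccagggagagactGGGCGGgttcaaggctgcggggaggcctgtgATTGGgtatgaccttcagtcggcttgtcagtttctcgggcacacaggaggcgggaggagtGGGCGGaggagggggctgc

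The Col1a2 window was 62% G or C and held CCAAT on its own strand 109 to 105 bases before the start, with GGGCGG at 205 to 200 and at 188 to 183. The Col3a1 window was 35.2% G or C, with TATAAA at 117 to 112 and GGAATG on the other strand at 168 to 163. The Col11a1 window was 62.4% G or C, with CCAAT on the other strand at 79 to 75 and GGGCGG at 110 to 105 and 19 to 14. The Col15a1 window was 53.6% G or C and held none of these letters. Over 32817 promoter windows of the same length, 33.8% held CCAAT, 12.4% TATAAA, 32.7% GGGCGG and 12.6% GGAATG. Counted per gene over any of its windows, the shares of 35 members were 37.1%, 14.3%, 60% and 11.4% in that order. None of the marked matches overlaps another. The promoter table held 35 of the 44 members, and no factor was measured at these sites.

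Most collagen RNA lay in a small set of cells with little Ptprc. Cells with Ptprc under 100 UMIs in each 1000000 of their own UMIs (Ptprc-low) numbered 190 in library 1 and 753 in library 2. They held 95.4% and 86.6% of all collagen UMIs. Their summed collagen level was 10514 UMIs per 1000000 UMIs of the same cells (CPM) in library 1, with an exact 95% Poisson interval of 10432 to 10596. In library 2 it was 5028 CPM (5005 to 5050). In leukocytes, defined as cells above that limit with at least 3 markers of 1 of 11 leukocyte lists, the level was 60.2 CPM over 4778 cells and 198 CPM over 5954 cells. The bead selection had thus left cells with scarce Ptprc RNA that carried most of the collagen UMIs in both libraries.

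The members spanned a wide range of counts. Of the 44, 31 had more than 10 UMIs over both libraries, 10 had 1 to 10, and Col9a1, Col4a6 and Col26a1 had none. By a rule of at least 100 UMIs in Ptprc-low cells, met by 21 members, or at least 20 UMIs in leukocytes of 1 library, 26 members are described with values and 18 are given as counts. A set of 7 members had more UMIs in leukocytes than in Ptprc-low cells in both libraries: Col9a3, Col20a1, Col9a2, Col10a1, Col2a1, Col11a2 and Col17a1. These are counts and not levels, since the leukocytes held 45726298 and 97098247 UMIs of all genes and the Ptprc-low cells 5969269 and 37001092. The order of counts thus gives no order of levels, and the share of all genes with it was not computed. All 7 are low, and none is a main chain of fibrils in soft tissue.

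Within the Ptprc-low cells, collagen was higher in cells with more fibroblast markers, though not at every step. The list held 9 markers and no collagen: Dcn, Lum, Dpt, Pdgfra, Fbln1, Fbln2, Mfap5, Serpinf1 and Clec3b. In library 1 the level was 34.9 CPM with no marker, 618 with 1, 3666 with 2 (a single cell) and 2059 with 3. It was 5281 with 4, 9735 with 5, 13955 with 6 (24 cells), 7330 with 7, 49997 with 8 and 30486 with 9. In library 2 the same steps gave 210, 519, 1263, 1884, 3688, 4726, 6431, 5637, 43055 and 45598 CPM. The largest step in CPM between neighbouring numbers was from 7 to 8 markers in both libraries, with 2 and 4 cells on its sides in library 1 and 21 and 23 in library 2.

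**Figure D1:**
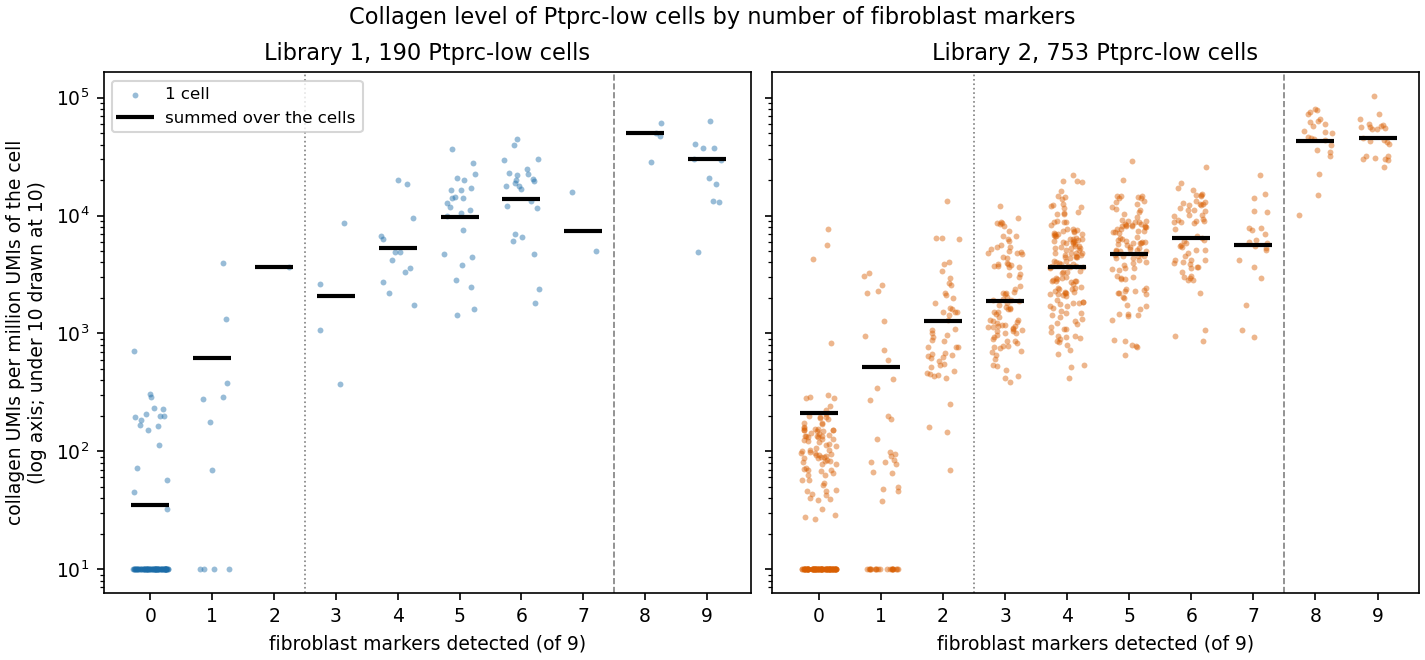
Collagen level (CPM, log axis, values under 10 drawn at 10) of each Ptprc-low cell against the number of the 9 fibroblast markers detected in it, with library 1 on the left and library 2 on the right. Bars give the level summed over the cells at that number, and vertical lines mark the limits at 3 and at 8 markers; from 7 to 8 markers the bars step up to 49997 CPM in library 1 and 43055 CPM in library 2.

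On this basis the cells with at least 3 markers (82 and 467) were split at 8 markers. This split was chosen after the collagen levels had been seen, so differences in collagen between its sides are descriptions that carry no weight of their own. Cells with 8 or 9 markers, 15 in library 1 and 46 in library 2, are called fibroblast-like. Cells with 3 to 7 markers, 67 and 421, are called partial-marker cells and get no cell type name, since Lum (0.213 and 0.247 CPM) and Clec3b (0.425 and 0.106 CPM) were at or near 0 in them. Dcn, which encodes the fibril-binding proteoglycan decorin, was at 7256 and 4077 CPM in fibroblast-like cells and at 851 and 747 CPM in partial-marker cells.

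Fibroblast-like cells carried collagen at a level that no other population reached. Their summed level was 37942 CPM (37353 to 38538) and 44365 CPM (44035 to 44697), and their median depth was 20972 and 28095 UMIs. Per cell the level was 4953 CPM at the lowest, 29916 at the median and 63180 at the highest in library 1, and 10172, 48155 and 103565 in library 2. In partial-marker cells the sum was 9951 CPM (9861 to 10041) and 3926 CPM (3903 to 3949), with median depths of 53168 and 52254 UMIs. Their cells ran from 375 through a median of 11538 to 44240 CPM in library 1 and from 389 through 4336 to 28887 CPM in library 2. The ranges of single cells overlapped between the populations in both libraries, and every cell of both populations held a collagen UMI. Because the partial-marker cells were many and deep, they still held 71.1% and 51.8% of all collagen UMIs, against 24.0% and 32.1% in fibroblast-like cells.

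Other markers differed along with collagen between these populations. At least 3 of 5 cell-cycle markers were detected in 37.3% and 50.4% of partial-marker cells but in 6.67% and 6.52% of fibroblast-like cells. Acta2, smooth muscle actin, stood at 612 and 476 CPM in partial-marker cells and at 24.0 and 63.0 CPM in fibroblast-like cells. It is 1 of 8 markers in the list for mural (vessel wall) cells. From that list Tagln was at 87.0 and 183 CPM against 69.6 and 67.5 CPM, and Cspg4 and Mcam were low but higher in partial-marker cells. Rgs5, Myh11, Notch3 and Des were at or near 0 in both populations. Of 8 macrophage markers, at least 3 were detected in 8 of 67 and 289 of 421 partial-marker cells and in 2 of 15 and 32 of 46 fibroblast-like cells. The summed level of this list was 21.3 and 255 CPM in partial-marker cells and, higher in both libraries, 221 and 356 CPM in fibroblast-like cells. The epithelial list of 9 genes reached 6.17 and 6.31 CPM in partial-marker cells. It was at 4.80 and 3.22 CPM in fibroblast-like cells and at 34.1 and 30.4 CPM in leukocytes. Krt5 and Krt17 were at 0 in all of these cells in both libraries. Ptprc, used in the choice of cells, was at 5.95 and 8.78 CPM in partial-marker cells and at 843 and 609 CPM in leukocytes. Named after their values were seen, Cdkn2a was at 527 and 686 CPM in partial-marker cells and 4.80 and 99.1 CPM in fibroblast-like cells. Met was at 125 and 60.3 CPM against 4.80 and 5.79 CPM. Whether partial-marker cells belong to the injected tumour line was not tested. The part of these differences in the collagen values was not tested.

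The Ptprc-low cells with under 3 fibroblast markers, 108 and 286, held 177 and 808 CPM of collagen, or 0.228% and 2.67% of all collagen UMIs. Among them 103 and 266 cells had at least 3 of 7 general leukocyte markers. Most of the low-Ptprc cells with few fibroblast markers held little collagen, with a median of 0 and 1 collagen UMIs per cell. The group was mixed: 2 and 54 cells had 10 or more and held 66% and 95.9% of its collagen UMIs.

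The main fibrillar chains made up most of the signal. A UMI marks the 3′ end of 1 transcript whatever its length, so levels of different genes are compared here without a length correction. Col3a1, the only chain of type III collagen, was the highest member in fibroblast-like cells at 11713 and 15651 CPM. Col1a2 and Col1a1, the 2 chains of type I collagen, stood at 10064 and 12487 CPM and at 7049 and 9160 CPM. In partial-marker cells the order differed: Col3a1 was at 1356 and 316 CPM, below Col1a2 at 2412 and 1211 CPM and Col1a1 at 2849 and 771 CPM.

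Type III thus had a different share of the 3 main chains in each population. Col3a1 made up 40.6% and 42.0% of their UMIs in fibroblast-like cells, 20.5% and 13.7% in partial-marker cells and 23.9% and 23.6% in leukocytes. The ratio of Col3a1 to Col1a1 was 1.66 and 1.71 in fibroblast-like cells and 0.476 and 0.410 in partial-marker cells. The share of Col3a1 was close between libraries in fibroblast-like cells, and its intervals in partial-marker cells did not reach those values.

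For type XI collagen the partial-marker cells had the higher values. Col11a1, a minor chain that works with type V inside fibrils, had 0 UMIs in the 15 fibroblast-like cells of library 1 and 94 UMIs, or 60.5 CPM, in library 2, where 7 of 46 cells held it and 1 cell held 49 of them. In partial-marker cells library 1 had 301 CPM, in 62 of 67 cells, and library 2 had 116 CPM, in 399 of 421 cells. With the 0 set to a floor of 3 UMIs over the cells summed, the partial-marker level was 41.8-fold higher in library 1. That value depends on the floor, and the exact interval for the 0 reached 8.85 CPM. In library 2 the log2 ratio of fibroblast-like to partial-marker cells was −0.94 (−1.25 to −0.64), short of the 2-fold limit. Against its partner Col5a1, the ratio of Col11a1 was 0 and 0.0698 in fibroblast-like cells and 1.48 in partial-marker cells of each library.

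The chains of type V, which start fibrils, stood between these patterns. Col5a1 was at 1056 and 867 CPM in fibroblast-like cells and 203 and 78.5 CPM in partial-marker cells. Col5a2 was at 1322 and 1320 CPM against 387 and 195 CPM. Col5a3, the rarer chain, was at 341 and 325 CPM against 183 and 115 CPM, so its ratio to Col5a2 was 0.258 and 0.246 in fibroblast-like cells and 0.474 and 0.591 in partial-marker cells. Col27a1, a fibrillar collagen of cartilage, was low in both, at 52.8 and 36.0 CPM against 7.44 and 3.88 CPM. All fibrillar members together gave 83.3% and 90.0% of collagen UMIs in fibroblast-like cells and 77.4% and 71.5% in partial-marker cells.

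**Figure D2:**
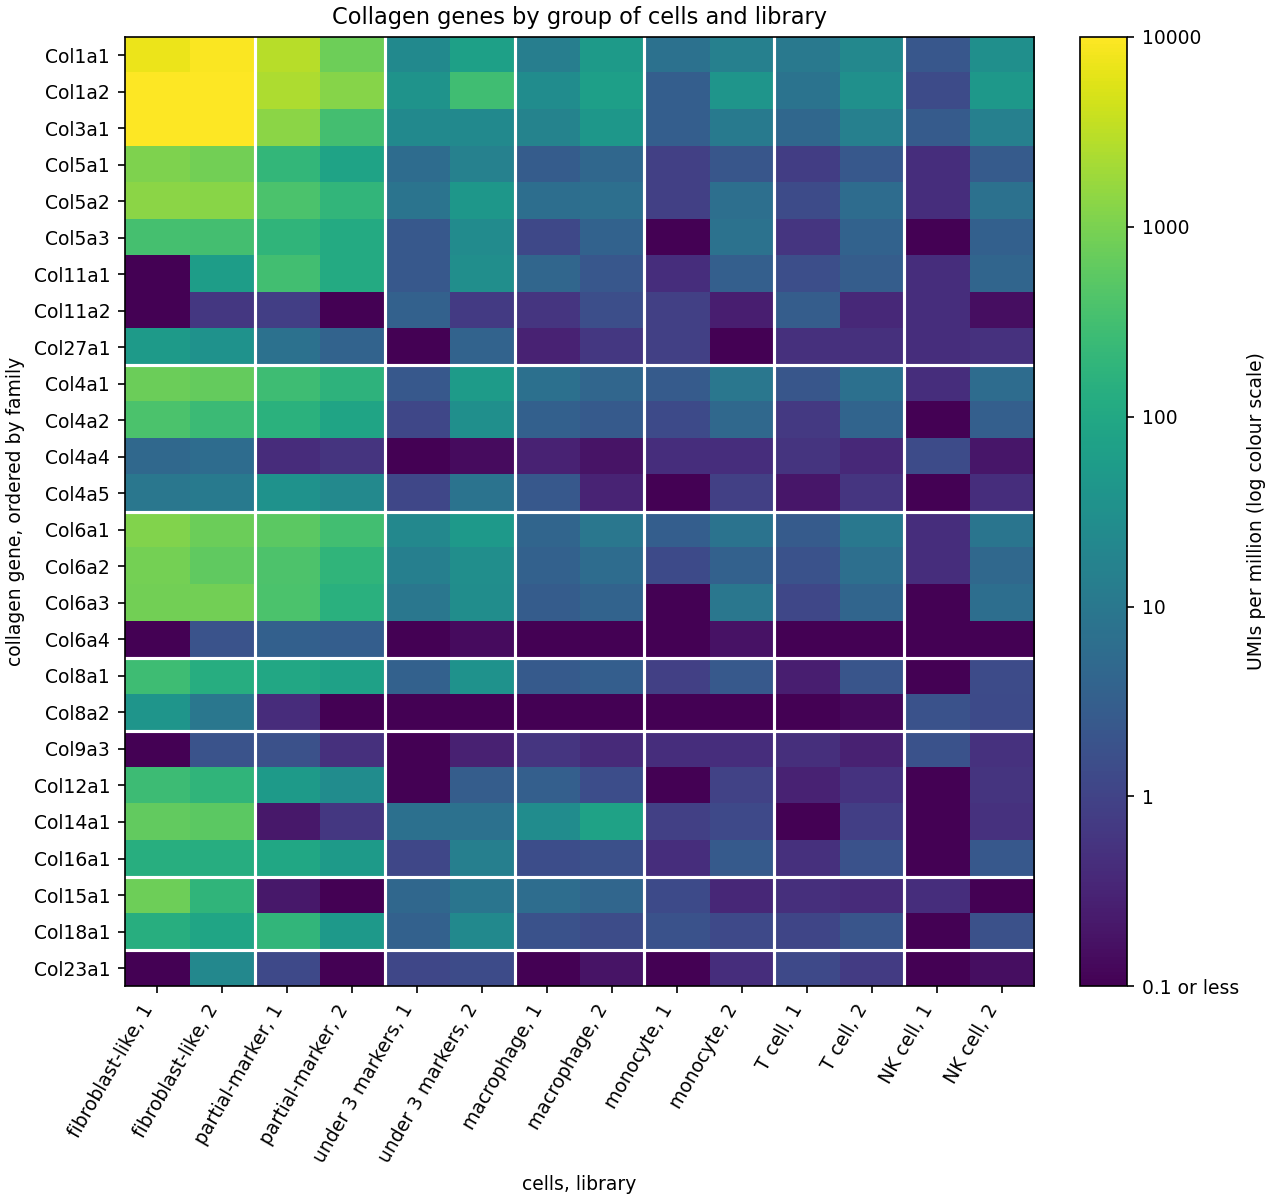
Colour gives the level of each described collagen gene (CPM on a log colour scale that ends at 10000 and at 0.1), with genes in rows ordered by family and, in columns, 7 populations of cells in libraries 1 and 2. Col14a1 is bright in fibroblast-like and macrophage-gated cells and dark in partial-marker cells (0.213 and 0.635 CPM), and Col11a1 is darkest in fibroblast-like cells of library 1, where it had 0 UMIs.

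Basement membrane and beaded filament chains took a larger share in partial-marker cells. Col4a1 and Col4a2, the common pair of type IV, were at 746 and 660 CPM and at 389 and 255 CPM in fibroblast-like cells. In partial-marker cells they were at 282 and 169 CPM and at 153 and 81.9 CPM. Col4a5, a chain of other type IV networks, was at 9.60 and 11.6 CPM in fibroblast-like and 35.3 and 22.9 CPM in partial-marker cells, where its ratio to Col4a1 was 0.125 and 0.136. In library 2 that difference did not pass the 2-fold limit and in library 1 its interval reached below 1.5-fold, since it rested on 4 UMIs. Col4a1 and Col4a2 overlap head to head on chromosome 8, and the sources used here do not say whether counting kept to strand.

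Type VI filaments link cells to the fibrils around them. Col6a1 was at 1111 and 742 CPM in fibroblast-like and 545 and 304 CPM in partial-marker cells. Col6a2 was at 893 and 592 CPM against 394 and 185 CPM, and Col6a3, the large chain that completes the filament, at 852 and 844 CPM against 389 and 150 CPM. The beaded filament members made up 7.54% and 4.93% of collagen UMIs in fibroblast-like cells and 13.4% and 16.3% in partial-marker cells. For the basement membrane members these shares were 3.03% and 2.10% against 4.73% and 6.98%.

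A pair of less abundant members was found in fibroblast-like cells and hardly at all in partial-marker cells. Col14a1, a collagen that sits on fibrils, was at 641 and 558 CPM in fibroblast-like cells, in 14 of 15 and 44 of 46 cells, but had 1 UMI (0.213 CPM) and 18 UMIs (0.635 CPM) in all partial-marker cells. Col15a1, whose product lies between basement membrane and fibrils, was at 782 CPM in library 1, in 9 of 15 cells, and at 183 CPM in library 2, in 40 of 46 cells. It had 1 and 2 UMIs in the partial-marker cells. Ptprc-low cells with under 3 markers held 4 and 62 UMIs of it, the latter in 8 cells with 37 in 1 of them. The log2 ratios of fibroblast-like to partial-marker cells were 11.56 (9.07 to 16.87) and 9.78 (9.11 to 10.54) for Col14a1, and 11.85 (9.36 to 17.15) and 11.34 (9.48 to 14.40) for Col15a1. Both genes were thus at or near 0 in partial-marker cells, the deeper of these populations.

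The remaining described members ranged between these cases. Col12a1, another collagen on the fibril surface, was at 274 and 187 CPM in fibroblast-like and 51.9 and 27.0 CPM in partial-marker cells. Col16a1, which is found on fibrils and near basement membranes, was at 134 and 133 CPM against 96.3 and 52.8 CPM. Col18a1, the basement membrane collagen that yields endostatin, was at 139 and 86.2 CPM against 194 and 49.5 CPM, so the libraries gave opposite orders. Col8a1, a short-chain collagen of vessel walls and the eye, was at 283 and 129 CPM against 99.3 and 71.8 CPM, and its UMIs lay in 6 of 15 and 21 of 46 fibroblast-like cells. With only the cells of 9 markers called fibroblast-like the order turned, at log2 ratios of −0.37 and −0.83 for Col8a1 and of −0.0355 for Col16a1 in library 1. Col8a2, the partner chain of Col8a1, was at 40.8 and 9.65 CPM in fibroblast-like cells, in 3 and 5 of them, and at 0.425 and 0.0353 CPM in partial-marker cells. Col23a1, which spans the membrane, had 0 UMIs in fibroblast-like cells of library 1 and 21.9 CPM in library 2, in 7 of 46 cells.

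Of 20 members with at least 20 UMIs in the compared cells of each library, 14 were at least 2-fold higher in fibroblast-like cells in both libraries, with intervals that left out 1.5-fold, and 0 were lower in both. Over all 9803 genes compared in the same way, 8.90% were higher and 5.32% lower. Since the split followed collagen, nothing is read from that contrast. The summed log2 ratio was 1.93 (1.90 to 1.96) in library 1 and 3.50 (3.48 to 3.51) in library 2. The 6 members outside that count were Col4a5, Col11a1, Col16a1, Col18a1, Col5a3 and Col8a1.

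**Figure D3:**
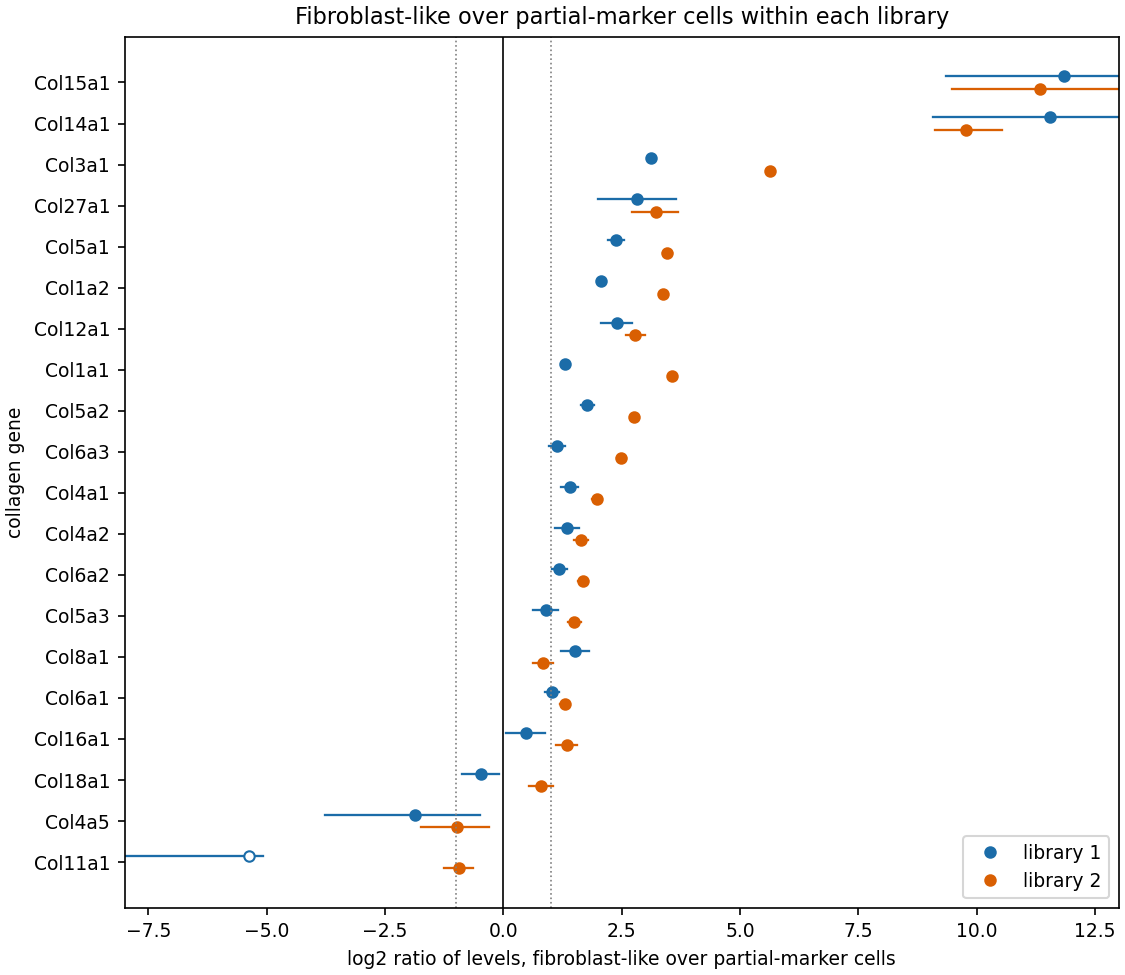
Log2 ratio of the level in fibroblast-like to that in partial-marker cells for each collagen gene compared, per library, with exact intervals for counting error (those that leave the plot are clipped); dotted lines mark 2-fold and the open point a value at the floor of 3 UMIs. Col14a1 and Col15a1 stand above 9 in both libraries, while Col4a5 and Col11a1 are below 0 in both.

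The libraries also differed from each other, in a way that was not the same in both populations. In partial-marker cells all 21 members compared had a higher level in library 1, and 8 passed the 2-fold limit, where 4.19% of 12056 genes were higher in library 1 and 2.12% lower. The 8 were Col3a1 (log2 ratio 2.10), Col7a1 (2.11), Col18a1 (1.97), Col1a1 (1.89), Col5a1 (1.37), Col11a1 (1.37), Col6a3 (1.37) and Col6a2 (1.09). Col7a1, the anchoring fibril collagen, was among them on few UMIs, falls outside the rule for described members and is named after its values were seen. The median over members was 0.99, against 0.12 over all genes compared, and the log2 ratio of the sum was 1.34. The partial-marker cells of library 2, with the lower collagen level, also had more macrophage marker UMIs, at 255 against 21.3 CPM, whose part was not tested. They had the larger share of cycling cells, and without cycling cells the log2 ratio of the sum was 1.23.

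In fibroblast-like cells the order was mixed. Of 23 members compared, 3 were higher in library 1 past the limit (Col15a1 at 2.09, Col8a2 at 2.08 and Col8a1 at 1.14) and 2 were lower (Col11a1 and Col23a1), where 3.15% of 7693 genes were higher and 1.30% lower. Both lower members had 0 UMIs in library 1. Their log2 ratios, computed at a floor of 3 UMIs over the cells summed, were −3.07 and −1.60, with upper limits of −2.74 and −1.23. The members above the limit rested on few cells, as Col15a1 was found in 9 cells of library 1 with up to 165 UMIs in 1 of them, and Col8a2 in 3. The 3 main chains were lower in library 1, with log2 ratios of −0.38 for Col1a1, −0.31 for Col1a2 and −0.42 for Col3a1, and the sum gave −0.23. With the split placed at 7 markers in place of 8, which adds 2 and 21 cells, the sum turned to 0.30 and these chains to 0.17, 0.20 and 0.19.

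For the fibroblast-gated cells as 1 population the log2 ratio of the sum was 1.02, with 12228 CPM in library 1 and 6028 CPM in library 2. Of 28 members compared, 8 were higher in library 1 past the limit and 0 lower, where 5.21% of 12557 genes were higher and 1.90% lower. They were Col1a1 (1.40), Col5a1 (1.19), Col11a1 (1.29), Col6a2 (1.08), Col6a3 (1.20), Col18a1 (1.88), Col15a1 (2.73) and Col8a2 (2.79), and with at least 4 markers asked for the count was 5. Fibroblast-like cells were 15 of 82 of these cells in library 1 and 46 of 467 in library 2, so this pooled ratio mixes populations with opposite signs for the sum. Whether any of these differences belongs to the genotype of the tumour or to the single preparation cannot be told apart.

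**Figure D4:**
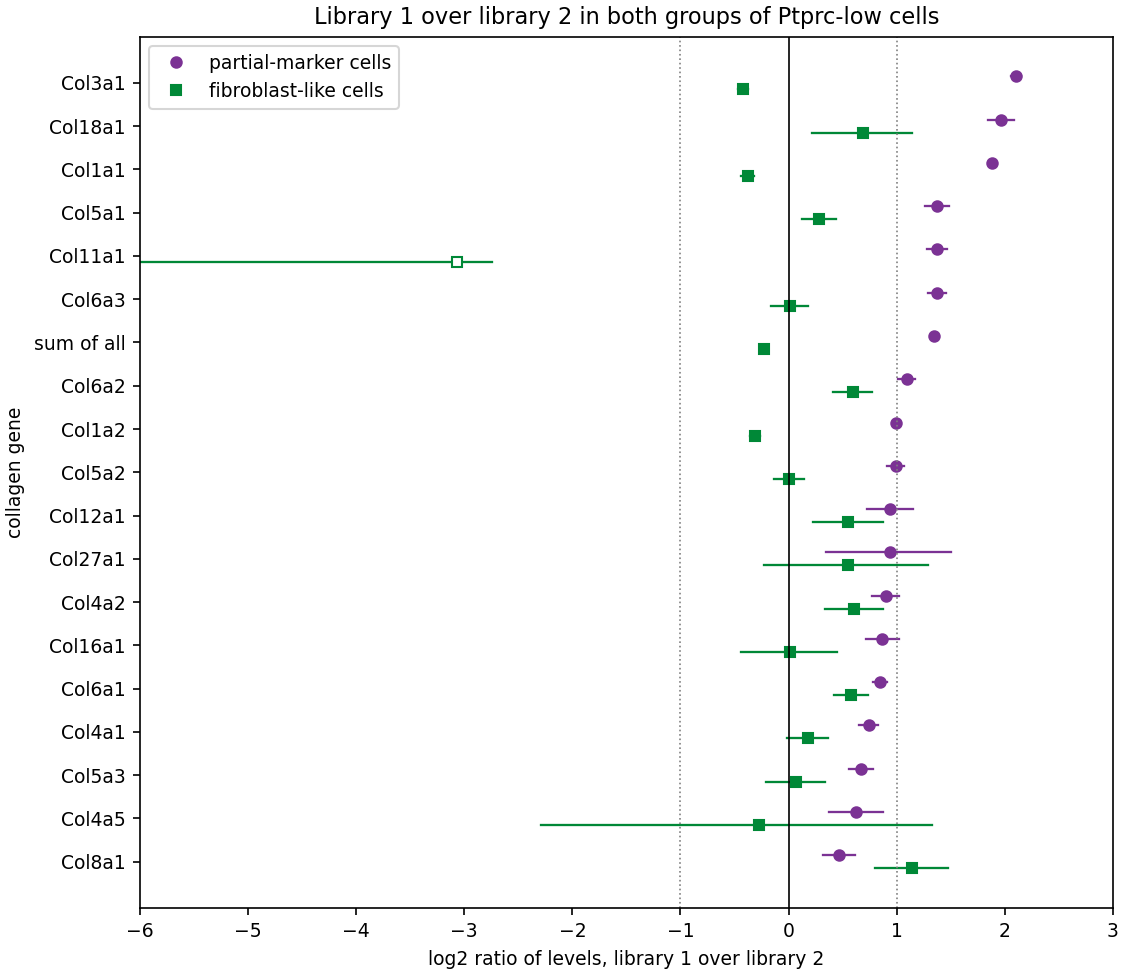
Log2 ratio of library 1 to library 2 for the 18 collagen genes compared in both populations and for the sum of all, with intervals for counting error (1 is clipped); circles are partial-marker and squares fibroblast-like cells, dotted lines mark 2-fold and the open square is at the floor of 3 UMIs. The circles all lie above 0, while Col1a1, Col1a2 and Col3a1 lie below 0 in fibroblast-like cells split at 8 markers (−0.38, −0.31 and −0.42) and above 0 when split at 7.

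Set against the leukocytes of the same library, most collagens were high in the fibroblast-gated cells. At least 10-fold higher were 21 of 25 members in library 1 and 20 of 29 in library 2, where 8.86% and 8.89% of all genes compared reached 10-fold. The median log2 ratio over members was 7.14 and 5.01, against 0.19 and −0.01 over all genes. The fibroblast gate used no collagen, although collagen and the gate's markers are known to share a cell type. In library 2 the members short of 10-fold were Col4a4, Col9a3, Col15a1, Col27a1, Col8a2, Col7a1, Col23a1, Col14a1 and Col11a2, and in library 1 they were Col4a4, Col9a3, Col23a1 and Col11a2. Col14a1 stood apart among the well-counted ones, at 29.6 CPM in fibroblast-gated cells and 31.4 CPM in leukocytes of library 2.

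Many leukocytes held a collagen UMI, while most of the UMIs lay in few cells. At least 1 was found in 18.7% of them in library 1 (exact binomial interval 17.6 to 19.8) and in 47.4% in library 2 (46.1 to 48.7), at median depths of 6977 and 14045 UMIs. With every cell thinned to 4000 UMIs, which left out no cell, the shares were 9.13% and 21.1%. The level by gate ran from 45.1 and 127 CPM in T cells and 15.9 and 148 CPM in NK cells to 141 and 300 CPM in macrophages. Monocytes had 32.8 and 133 CPM, and the 525 B cells of library 1 had 86.6 CPM (18.5 CPM without the 1 cell that held most of it), while no cell of library 2 passed the B cell gate. Thinned, 7.64% and 10.8% of T cells and 23.9% and 37.2% of macrophage-gated cells held a collagen UMI. T and NK cells are not known to make fibrillar collagen. Free RNA was not measured here, and its part in these shares was not tested.

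A few cells carried much of it. Leukocytes with 10 or more collagen UMIs numbered 7 in library 1 and 93 in library 2 and held 53.7% and 69.7% of the leukocytes' collagen UMIs. At least 3 fibroblast markers were detected in 4 and 31 of them, and 4 and 66 were in the macrophage gate. The collagen UMIs were mostly Col14a1 in 3 and 53 of them. Without these cells the leukocyte level was 28.1 and 62.4 CPM. Single cells also weighed on the gates: 1 B cell held 268 of the 338 collagen UMIs of its gate, and without it the B cell level was 18.5 CPM. Leaving out the cell with most collagen UMIs gave 22.8 and 100.1 CPM in T cells, 15.3 and 108 CPM in NK cells, 31.7 and 104 CPM in monocytes and 75.8 and 241 CPM in macrophages. The macrophage gate had the highest of these levels in both libraries with and without such cells. Another 1 and 11 cells with Ptprc above the limit had a stromal list as their leading one, at 18138 and 30892 CPM of collagen, and were kept out of every gate.

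**Figure D5:**
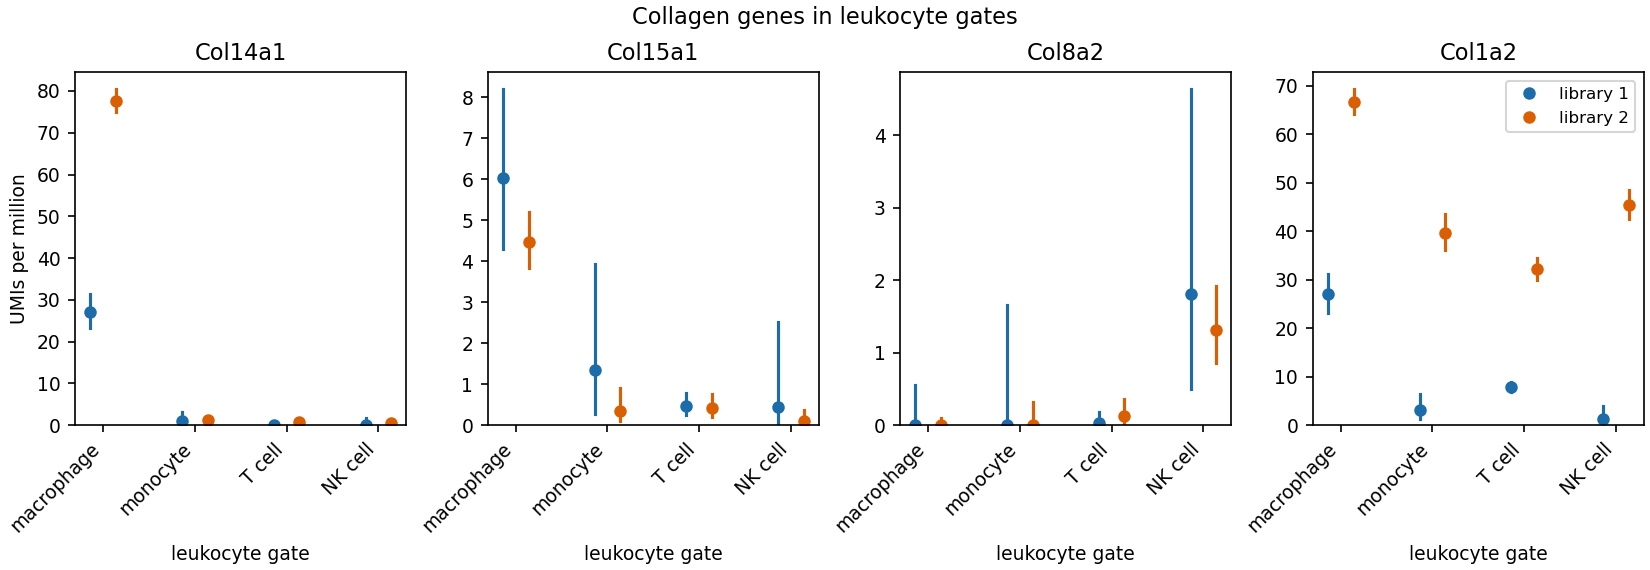
Levels (CPM, linear axes that differ between panels) of Col14a1, Col15a1, Col8a2 and Col1a2 in macrophage, monocyte, T cell and NK cell gates, with 1 point per library and exact Poisson intervals. Col14a1 is at 27.1 and 77.6 CPM in macrophage-gated cells and under 2 CPM in the other gates shown, while Col1a2 is present in all of them.

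Col14a1 had a pattern of its own in the leukocytes. Macrophage-gated cells held 27.1 CPM of it in library 1, from 180 UMIs in 79 of 356 cells, and 77.6 CPM in library 2, from 2999 UMIs in 1030 of 2050 cells. T cells held 0.101 and 0.839 CPM, NK cells 0 and 0.505 CPM, and monocyte-gated cells 0.898 and 1.24 CPM. Thinned to 4000 UMIs, 8.15% and 22.3% of macrophage-gated cells had a Col14a1 UMI, against 0.0855% and 0.389% of T cells, whose median depth before thinning was 6581 and 12343 UMIs against 16602 and 17356. The share thus differed between gates at equal depth and did so in both libraries.

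Its proportion to the other chains differed as well. For each 100 UMIs of Col1a1, Col1a2 and Col3a1 together, macrophage-gated cells had 46.6 and 47.7 of Col14a1. That ratio rested in part on 1 cell in each library, with 223 of 386 and 1990 of 6281 main-chain UMIs, and without it the values were 109 and 69.5, so their closeness between libraries was not stable. Fibroblast-like cells had 2.22 and 1.497, partial-marker cells 0.00321 and 0.0276, and T cells 0.441 and 1.21. The 3 main chains were at 13.7 and 52.4 CPM (Col1a1), 27.0 and 66.7 CPM (Col1a2) and 17.5 and 43.4 CPM (Col3a1) in macrophage-gated cells. In the macrophage gate Col14a1 was thus at the level of a main fibrillar chain or above it, while in fibroblast-like, partial-marker and T cells it was a minor member. Without the macrophage-gated cells that had any fibroblast marker its level was 19.9 and 71.0 CPM.

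Within the macrophage gate the Col14a1 UMIs were concentrated. Cells with 3 or more numbered 22 (6.18%) and 420 (20.5%), and they held 58.9% and 72.2% of the gate's Col14a1 UMIs. The main chains had 11 UMIs in all 22 such cells of library 1 and 2545 UMIs in the 420 of library 2, and 12 and 237 of the cells had none. Summed, the main chains were at 17.3 and 259 CPM in these cells, at 199 and 226 CPM in cells with 1 or 2 Col14a1 UMIs and at 25.04 and 61.6 CPM in cells with none, so the libraries differed in order. In library 2 the summed main chains were higher in both sets of cells with Col14a1. A single cell in each library held 223 of 386 and 1990 of 6281 main-chain UMIs of the gate. Cells with no Col14a1 UMI held 118 and 1039 in all, so that cell lay among those with Col14a1. In library 1 it was among the cells with 1 or 2, which held 257. The order of these sums thus rests in part on that cell and was not computed without it. Dcn was at 1.58 and 10.4 CPM in the cells with 3 or more, at 31.7 and 17.1 CPM in those with 1 or 2 and at 4.67 and 16.7 CPM in those with none. At least 3 fibroblast markers were found in 0 and 7 of the cells with 3 or more. Their median depth was 28072 and 21626 UMIs, against 15343 and 14878 in cells without it. A count of UMIs per cell favours deep cells, and the part of depth in this split was not tested.

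Other genes differed across that split, and those named here were chosen after their values were seen. Stab1, a scavenger receptor, was at 301 and 446 CPM in cells with 3 or more Col14a1 UMIs and at 108 and 172 CPM in cells with none. Fn1, which encodes fibronectin and is among the monocyte markers, was at 1062 and 1387 CPM against 368 and 650 CPM. Ly6c2 and Plac8, monocyte markers, were at 14.2 and 92.0 CPM against 855 and 473 CPM and at 9.46 and 148 CPM against 402 and 625 CPM. Mmp12, an elastase of macrophages, was at 12.6 and 6.51 CPM against 66.4 and 70.3 CPM. The gene 1700040F17Rik lies within Col14a1 on the opposite strand, so its reads could not be separated if the counting ignored strand.

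The other members found in leukocytes had few UMIs. Col15a1 was at 6.02 and 4.48 CPM in macrophage-gated cells, from 40 and 173 UMIs, against 0.469 and 0.420 CPM in T cells, and 1 cell of library 2 held 32 of its UMIs. Col11a2, a chain of cartilage fibrils, had 88 UMIs over 81 T cells in library 1 but 9 in T cells of library 2, and 4 and 61 UMIs in macrophage-gated cells, so neither gate was high in both libraries. Col8a2 had 4 and 26 UMIs in NK cells and 0 in macrophage-gated cells. Col23a1 had 38 and 18 UMIs in T cells, and Col27a1 had 9 and 7 UMIs in migratory dendritic cells, 6 of the 9 in 1 cell. Col9a3 had 24 and 40 UMIs and Col4a4 23 and 25 over all leukocytes. Col9a3 overlaps Tcfl5, a gene on the other strand, so its few UMIs are uncertain.

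Making collagen needs enzymes and chaperones, and 69 genes in 6 lists were counted beside the members. Over all genes compared, 8.86% and 8.89% were at least 10-fold higher in fibroblast-gated cells than in leukocytes, 19.5% and 24.3% were lower past 2-fold, and the median log2 ratio was 0.19 and −0.01. Between fibroblast-like and partial-marker cells 8.90% of genes were higher and 5.32% lower in both libraries, and since that split followed collagen, nothing is read from the lists' counts in it. The proline and lysine hydroxylases and folding factors had 19 of 20 genes with enough UMIs, of which 11 and 7 were at least 10-fold higher in fibroblast-gated cells than in leukocytes and 0 were lower past 2-fold. Their median log2 ratio was 4.49 and 2.76. In the comparison of fibroblast-like with partial-marker cells 9 of the 19 were higher in both libraries and 0 lower. Serpinh1, the collagen-specific chaperone, was at 1702 and 2064 CPM in fibroblast-like cells, 645 and 472 CPM in partial-marker cells and 4.02 and 16.5 CPM in leukocytes. P4ha2, a prolyl hydroxylase subunit, was at 88.8 and 144 CPM against 14.2 and 8.82 CPM in partial-marker cells. Creb3l1, a transcription factor of secretory cells that acts on collagen genes, was at 113 and 145 CPM against 0.638 and 0.0705 CPM, the latter from 3 and 2 UMIs.

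The secretion list had 0 of 5 genes at 10-fold over leukocytes in either library, with a median log2 ratio of 0.52 and 0.02, and 2 of 5 were higher in fibroblast-like than in partial-marker cells. Its members serve all secreted cargo or large cargo in general. Of the enzymes that trim propeptides and crosslink fibrils, 9 of 10 compared were at least 10-fold higher in each library (median log2 ratio 6.91 and 5.21), and 8 of 10 were higher in fibroblast-like cells. Lox, a lysyl oxidase that starts crosslinks, was at 686 and 630 CPM in fibroblast-like, 90.8 and 72.1 CPM in partial-marker cells and 0.722 and 2.84 CPM in leukocytes. Loxl2, a related oxidase, was at 398 and 366 CPM against 0.425 and 1.94 CPM in partial-marker cells, where library 1 had 2 UMIs. Bmp1, which removes the C-propeptide, was at 338 and 414 CPM against 61.2 and 29.98 CPM, and Adamts2, which removes the N-propeptide, at 406 and 344 CPM against 16.2 and 16.4 CPM.

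Among the partners that bind fibrils, 12 and 11 of 14 were at least 10-fold higher in fibroblast-gated cells than in leukocytes (median log2 ratio 6.88 and 5.05), and 1 was lower past 2-fold in each library. That gene was Tgfbi, a matrix adaptor also made by macrophages, at 1307 and 857 CPM in macrophage-gated cells against 119 and 222 CPM in fibroblast-gated ones. Of 13 compared, 6 were higher in fibroblast-like than in partial-marker cells in both libraries. Postn, which encodes periostin, was at 2575 and 2685 CPM in fibroblast-like cells and at 1521 and 255 CPM in partial-marker cells, so its library difference lay in the partial-marker cells. Thbs2, thrombospondin 2, was at 422 and 562 CPM against 38.5 and 14.4 CPM.

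Collagen receptors included genes on both sides. Of 10 compared, 4 in each library were at least 10-fold higher in fibroblast-gated cells, against 8.86% and 8.89% of all genes, and 2 and 3 were lower past 2-fold, a share near the 19.5% and 24.3% of all genes. Their median log2 ratio was 2.47 and 1.58. Ddr2, a receptor kinase for fibrillar collagen, was at 322 and 149 CPM in fibroblast-like and 77.0 and 40.8 CPM in partial-marker cells. Itga11, an integrin chain for fibrillar collagen, was at 45.6 and 28.9 CPM in fibroblast-like cells and had 0 and 2 UMIs in partial-marker cells. Lair1, an inhibitory collagen receptor of leukocytes, was at 290 and 170 CPM in macrophage-gated cells and at 0 and 2.57 CPM in fibroblast-like cells. Mrc1, which takes up collagen fragments, was at 543 and 510 CPM in macrophage-gated cells, where it was also a gate marker.

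Of the 7 genes of collagen cleavage and uptake, 3 and 1 were at least 10-fold higher in fibroblast-gated cells than in leukocytes and 1 and 3 were lower past 2-fold, with a median log2 ratio of 3.08 and 1.17. In the comparison of fibroblast-like with partial-marker cells, 4 of 5 were higher and 1 lower in both libraries. Ctsk, the collagen-cleaving cathepsin K, was at 530 and 320 CPM in fibroblast-like cells against 1.49 and 2.57 CPM in partial-marker cells, and macrophage-gated cells had 1.36 CPM of it in library 1 but 95.2 CPM in library 2. Fap, a fibroblast surface protease, was at 79.2 and 80.4 CPM against 0.638 and 0.705 CPM. Mmp9, a gelatinase and also a gate marker, was the lower one, at 2.40 and 23.8 CPM in fibroblast-like and 228 and 92.1 CPM in partial-marker cells.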

How the data were processed

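The matrix held raw UMI counts per gene and cell, deposited by the authors as 1 filtered table for both groups, with version 3.1.0 in the file header. Cell Ranger and build mm10 are given per the submitters' processing notes, and the sources used here do not give further settings. The tag on each barcode divides the table into 2 libraries, and since no source maps them to the 2 labelled groups (1 library per group), WT and miR-21 KO could not be compared. No column of per-sample values was left out (0).

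Cells needed at least 200 genes, 500 UMIs and at most 10% mitochondrial UMIs. Scrublet, run through scanpy 1.11.5 at an expected rate of 0.06, marked 0 doublets on its own threshold and so had not worked; the 5% of cells with the highest scores in each library (266 and 360) were removed in its place, which took 0 and 20 partial-marker and 0 and 2 fibroblast-like cells. Mitochondrial and gene limits removed 79 and 96, and 0 and 1 cells. Median depth per library was 7169 and 15248 UMIs.

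Counts were summed over cells and given per 1000000 UMIs of those cells (CPM) (numpy 2.4.6, scipy 1.17.1, pandas 2.3.3, Python 3.11.15). Levels have exact Poisson, shares exact Clopper-Pearson and ratios exact conditional binomial intervals at 95%. All of these, and the floor of 3 counts used for a 0, cover counting error only. Genes with at least 20 UMIs in the compared cells were compared, and a difference was called at 2-fold with an interval that excludes 1.5-fold. The calculations were tested on simulated Poisson counts, the model that the intervals assume. That test therefore does not cover UMIs clumped in few cells. Leukocyte gates asked for at least 3 markers of 1 of 11 lists, and the list with the largest share of its markers detected named the cell.

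Members with at least 100 UMIs in Ptprc-low cells or 20 in leukocytes of 1 library are described. Other genes come from 6 lists of 69 genes, from the marker lists or, where so stated, were named after their values were seen. The members and lists were chosen with earlier results of these data known, and the split at 8 markers was set after seeing collagen levels. Alternatives were other doublet, mitochondrial, depth, Ptprc and gate limits, thinning, and means over cells. Sequences are from RefSeq.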

Additional observations from a re-analysis of the deposited data

Results flagged for a closer look

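In 4 of the 18 members compared in both populations, and in the sum of all members, the ratio of library 1 to library 2 had opposite signs in fibroblast-like and partial-marker cells, with intervals for counting error on opposite sides of 0. The difference between the populations was not tested, since there is 1 library on each side. For Col3a1, the type III chain, the log2 ratio was −0.42 in fibroblast-like and 2.10 in partial-marker cells. For Col1a1 and Col1a2, the type I chains, it was −0.38 and −0.31 in fibroblast-like cells and 1.89 and 0.99 in partial-marker cells. For Col11a1, a chain inside fibrils, it was −3.07 (upper limit −2.74) in fibroblast-like cells and 1.37 in partial-marker cells. Library 1 had 0 UMIs of it in fibroblast-like cells, set to the floor of 3, and 1 cell of library 2 held 49 of 94. For all members summed the log2 ratio was −0.23 and 1.34. With fibroblast-like cells taken from 7 markers the sum in them was 0.30, so that the opposite signs rest on where the split is placed for every one of these but Col11a1.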

How the results depend on the processing

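In each pair the first value is library 1 and the second library 2. The Ptprc-low level (10514 and 5028 CPM) was 10420 and 4950 CPM with doublets kept, 10690 in library 1 at 5% mitochondrial UMIs, 11390 and 5077 in cells of at least 10000 UMIs, 10876 and 5285 at a Ptprc limit of 50, 8605 and 4401 at 200, and 7210 and 6212 as a mean over cells. Their share of collagen UMIs in the same order of settings was 94.7% and 83.1%, 95.5% and 86.9%, 96.0% and 86.9%, 93.7% and 83.1%, and 96.3% and 92.8%. The leukocyte level (60.2 and 198 CPM) was 62.7 and 262 CPM with doublets, 63.7 and 188 at 5% mitochondrial UMIs, 92.8 and 223 in deep cells, 28.1 and 62.4 without cells of 10 or more collagen UMIs, and 31.4 and 107 as a mean over cells. The share of leukocytes with a collagen UMI was 33.6% and 56.7% in deep cells, 9.13% and 21.1% thinned, and 49.0% in library 2 with doublets. The log2 library ratio in fibroblast-gated cells (1.02) was 1.05 with doublets, 1.00 and 0.98 at Ptprc limits of 50 and 200, 1.15 and 0.77 with 2 and 4 markers asked for, and 0.77 as a mean over cells, and 5 members in place of 8 passed 2-fold with 4 markers.

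Alternatives chosen after seeing the data moved the fibroblast-like over partial-marker ratio (1.93 and 3.50) to 1.49 and 2.59 from 7 markers, 1.44 and 3.21 at 9 markers, 1.36 and 3.18 as a mean over cells, and 3.47 in library 2 with doublets. The library ratio in fibroblast-like cells (−0.23) was 0.30 from 7 markers, which turns its sign, −0.58 at 9 markers, −0.18 with doublets and −0.58 as a mean over cells. In partial-marker cells (1.34) it was 1.40, 1.19, 1.36 and 1.25 in that order, and 1.23 without cycling cells. Macrophage Col14a1 (27.1 and 77.6 CPM) was 19.9 and 71.0 CPM without cells holding a fibroblast marker and 70.9 in library 2 with doublets. Leaving out the cell with most collagen UMIs lowered the B cell level from 86.6 to 18.5 CPM, the T cell level of library 1 from 45.1 to 22.8 and the macrophage level of library 1 from 141 to 75.8. Single members that turned sign were Col16a1 (−0.0355, library 1) and Col8a1 (−0.37 and −0.83) for fibroblast-like over partial-marker cells at 9 markers. In the library ratio of fibroblast-like cells they were Col3a1 (0.19), Col1a2 (0.20) and Col1a1 (0.17) from 7 markers, and Col5a1 (−0.30), Col4a2 (−0.41) and Col12a1 (−0.10) at 9 markers. The cause of these shifts was not tested beyond the change of cells included. Of 99 alternatives for the main values 37 stayed within the limits set, 61 moved and 1 turned sign, and for 25 single members 313 of 422 stayed, 100 moved and 9 turned sign. No paired analysis was possible because each group has 1 library. Library 1 had 15 fibroblast-like cells, which limits every ratio on them.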
